A study of Mus musculus with 8 samples.

Results

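The 6 genes described here move cholesterol between endothelial cells and high density lipoprotein (HDL), or control that movement: Abca1, Abcg1, Scarb1, Nr1h2, Nr1h3 and Mylip. They were chosen by symbol in the gene list of run B and matched to run A by Ensembl identifier, which found all 6 among the 30406 genes that both runs list. Single-cell RNA was sequenced from YFP-sorted cells of male ROSA26-eYFP+/+ Cdh5-CreERT2+ mice, in 8 libraries. The 4 groups, with 2 libraries each (runs A and B), are mesentery or epididymal adipose tissue, each from mice that ate chow with 5.8% fat or a high fat diet with 60% fat. Every group, the chow groups included, carried the reporter and the Cre driver and ate a tamoxifen diet for 2 weeks from the age of 6 weeks, then its own diet from 8 weeks for 12 to 13 weeks. The labels describe the runs as a repeat of the experiment, and each library pools tissue from 6 mice, so the spread between mice inside a library is not visible. Cdh5-CreERT2 marks cells in which the Cdh5 promoter was active during tamoxifen, which takes in blood and lymphatic endothelium.

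Cells hand surplus cholesterol to HDL through 2 ATP-driven exporters: ABCA1 loads lipid-poor apolipoprotein A-I, and ABCG1 loads HDL that has already formed. SR-BI, the product of Scarb1, works at the other end: it binds mature HDL and takes up its cholesteryl ester, and in endothelium it also carries lipoproteins across the cell and passes HDL signals to nitric oxide synthase. The liver X receptors LXRα (Nr1h3) and LXRβ (Nr1h2) are nuclear receptors for oxysterols that switch on Abca1, Abcg1 and Mylip, whose product is a ubiquitin ligase (IDOL) that sends lipoprotein receptors to degradation.

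Of 27944 barcodes, 23138 cells were used, from 981 to 5377 per library. Run A was shallower than run B, with 3461360 to 6714473 UMIs per library against 18829960 to 36779289, and 22.8% to 30.8% of its barcodes failed the limit on mitochondrial UMIs against 5.36% to 8.85% in run B. Libraries shared at most 10 cell barcodes with one another. Clustering, from which the 6 members and the genes of their pathway had been left out, gave 27 clusters. Marker genes put 3162 cells in an arterial-like class, 5442 in a capillary-like, 2613 in a venous-like and 2515 in a lymphatic-like class. Clusters 3, 13, 15, 23 and 25 had endothelial markers but were given no class, and count only among the 17369 endothelial cells. The 10 endothelial markers (Cdh5, Pecam1 and others) were all found in every library's sum of endothelial cells, at 6472 to 9621 counts per 1000000 (CPM) in total. The sorted cells also held macrophage-like, T cell-like, B cell-like, fibroblast-like and adipocyte-like clusters, so part of what the sort let through was not endothelium.

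Scarb1 had the largest class differences of the 6 members. It was highest in capillary-like cells, intermediate in venous-like cells, lower in arterial-like cells and close to 0 in lymphatic-like cells. Abca1 was highest in lymphatic-like cells and, like Scarb1, lower in arterial-like than in venous-like cells. Nr1h3 was highest in lymphatic-like cells and Mylip was high in capillary-like and venous-like cells, while Nr1h2 differed least. Abcg1 was lowest in arterial-like cells and did not differ past the test among the other 3 classes.

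Levels here are CPM, with a gene's UMIs scaled to all UMIs of the class in 1 library, and are compared for 1 gene across classes, never between genes. Differences are log2 differences with their SE from edgeR's quasi-likelihood test on the class sums, with the library as a block and p-values adjusted by the Benjamini-Hochberg method over the 9035 genes tested; a difference is called when the adjusted p is under 0.05. The classes were rebuilt from the same cells, so these p-values describe classes and do not test their names. Of the 36 comparisons of a member between 2 classes, 26 were called. The members called numbered 3 of 6 between arterial-like and capillary-like cells, where 23.6% of all genes tested were called, 5 of 6 between arterial-like and venous-like cells (27.2% of all genes), 5 of 6 between arterial-like and lymphatic-like cells (43.4%), 3 of 6 between capillary-like and venous-like cells (29.6%), 5 of 6 between capillary-like and lymphatic-like cells (43.3%) and 5 of 6 between venous-like and lymphatic-like cells (39.2%). The 3 steps from capillary-like to venous-like cells (Abca1, Scarb1 and Nr1h3) were the least firm. Limma-voom called none of them (adjusted p from 0.0787 to 0.282), and neither did edgeR on a finer clustering (resolution 2.0). There the capillary-like class itself changed, to 1 cluster of 1226 cells in place of clusters of 2923 and 2519 cells. In run A its mesenteric chow, adipose chow and mesenteric high fat diet libraries held 6, 8 and 5 cells and dropped out of that fit.

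**Figure D1:**
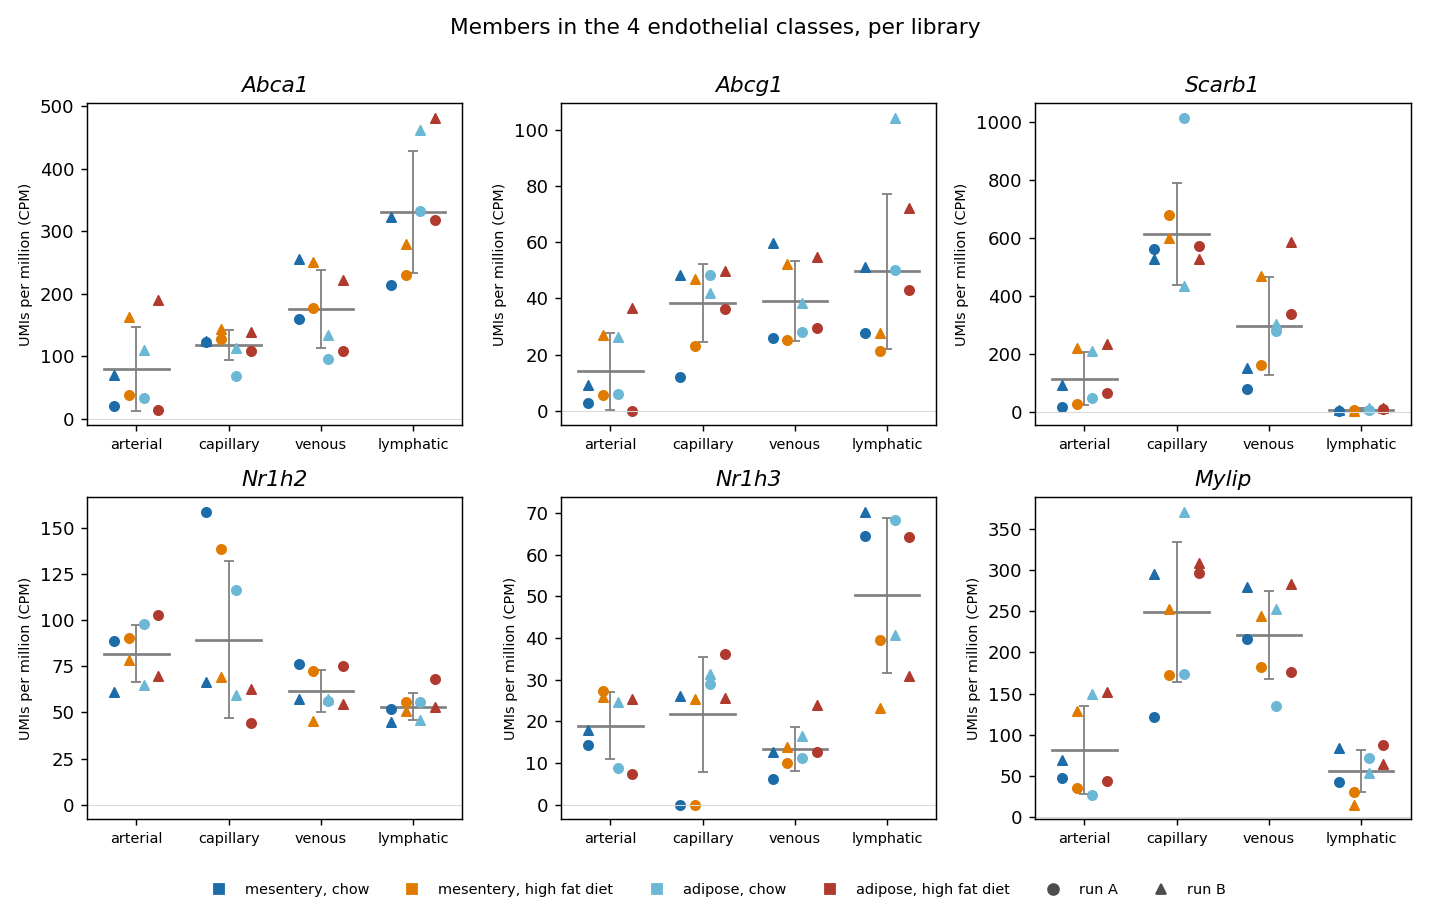
Each panel plots 1 member in CPM in the 4 endothelial classes; points are the 8 libraries (colour for group, shape for run), the grey line is the mean over the libraries and its bar the SD. Scarb1 lies between 434 and 1020 CPM in capillary-like cells and between 3.47 and 14.0 CPM in lymphatic-like cells, and Abca1 is highest in the lymphatic-like class of all 8 libraries.

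Abca1, the exporter that starts HDL, lies on chromosome 4 (GRCm38, 53030787 to 53159895, minus strand; Ensembl ENSMUSG00000015243). Its promoter is shown because it holds the kind of element through which LXR acts. These are the 250 bases before the start site (chr4:53159896-53160145, GRCm38.p6, minus strand, from RefSeq), written 5′ to 3′ along the gene.
Abca1 promoter: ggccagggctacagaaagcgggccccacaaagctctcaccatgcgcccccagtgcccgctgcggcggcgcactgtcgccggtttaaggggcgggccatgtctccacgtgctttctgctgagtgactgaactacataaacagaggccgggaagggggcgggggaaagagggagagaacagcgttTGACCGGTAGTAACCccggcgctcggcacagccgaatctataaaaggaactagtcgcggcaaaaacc
The capitals mark a direct repeat with a 4-base spacer (DR4), the arrangement that LXR binds together with its partner RXR. The search was for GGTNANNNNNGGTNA on both strands of the 300-base windows from 250 bases before to 50 after a start site, and the match here lies on the reverse strand of the printed run, from position -67 to -53 relative to the start site. Of 32851 such windows in the RefSeq table, 236 (0.718%) held a match. Of the 6 members, 4 had windows in that table, and none of those of Nr1h2, Nr1h3 and Mylip held these letters. Abcg1 and Scarb1 had no window there.

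In lymphatic-like cells Abca1 ran from 214 to 482 CPM with a median of 321 CPM, and its mean was 330 ± 97.8 CPM (SD, n = 8 libraries). Venous-like cells averaged 175 ± 62.0 CPM, capillary-like cells 118 ± 23.5 CPM and arterial-like cells 79.7 ± 67.1 CPM. In each of the 8 libraries the lymphatic-like class was above the venous-like class, and the venous-like class above both the capillary-like and the arterial-like class. Abca1 was lower in arterial-like than in lymphatic-like cells (log2 difference -2.04 ± 0.246, edgeR adjusted p = 5.3e-08). The step from venous-like to lymphatic-like cells was smaller but called (-0.78 ± 0.236, edgeR adjusted p = 0.00873), as was that from capillary-like to venous-like cells (-0.79 ± 0.263, edgeR adjusted p = 0.0223). Arterial-like and capillary-like cells, the lowest neighbours, did not differ past the threshold (-0.47 ± 0.262, edgeR adjusted p = 0.232), and their order turned in 2 of 8 libraries. Inside the lymphatic-like class Abca1 was higher in cluster 4, the Reln, Ccl21a and Lyve1 cluster (383 ± 102 CPM), than in cluster 12, led by Spp1 and Nts (201 ± 118 CPM), and this order held in 8 of 8 libraries. Among the other sorted cells, macrophage-like cells, a type known for Abca1, held 162 ± 41.2 CPM (n = 4 libraries with at least 20 such cells).

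Abcg1, the exporter that enlarges HDL (chromosome 17, 31057675 to 31117988, plus strand; ENSMUSG00000024030), averaged 14.1 ± 13.7 CPM in arterial-like cells, where 1 library (adipose, high fat diet, run A) had no UMI of it. Capillary-like cells averaged 38.3 ± 13.9 CPM, venous-like cells 39.2 ± 14.3 CPM and lymphatic-like cells 49.7 ± 27.5 CPM. In all 8 libraries arterial-like cells were below each of the other 3 classes, with a log2 difference of -1.13 ± 0.251 against capillary-like cells (edgeR adjusted p = 0.00102) and larger steps against venous-like cells (-1.36 ± 0.255) and lymphatic-like cells (-1.51 ± 0.260). Between the other classes no step was called (edgeR adjusted p from 0.235 to 0.702). Macrophage-like cells, which use ABCG1 to unload cholesterol, held 77.4 ± 28.9 CPM (n = 4 libraries), and fibroblast-like cells had 4 UMIs in 8 libraries. Across the 32 class sums, after each library's mean was subtracted, Abcg1 followed Abca1 with r = 0.86 (a description; the 4 sums of a library share their depth).

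Scarb1, the HDL receptor (chromosome 5, 125277087 to 125341094, minus strand; ENSMUSG00000037936), averaged 615 ± 176 CPM in capillary-like cells (lowest 434, median 567, highest 1020 CPM). Venous-like cells averaged 296 ± 170 CPM and ranged from 78.5 to 586 CPM, and arterial-like cells averaged 114 ± 91.7 CPM, from 16.9 to 234 CPM. Capillary-like cells were above venous-like cells in 7 of 8 libraries (1.11 ± 0.284 log2 units, edgeR adjusted p = 0.00321), and venous-like above arterial-like cells in 8 of 8 (arterial minus venous -1.36 ± 0.282, edgeR adjusted p = 4.18e-04). In lymphatic-like cells only 58 UMIs of Scarb1 were counted in all, 3.47 to 14.0 CPM per library, which left capillary-like cells 6.35 ± 0.390 log2 units higher (edgeR adjusted p = 7.02e-14). T cell-like cells, which should lack the receptor, were at 9.37 ± 11.1 CPM (n = 7 libraries) and B cell-like cells at 8.02 ± 3.47 CPM (n = 4), so the lymphatic-like level did not stand above that background.

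The shares of cells with at least 1 Scarb1 UMI gave the same order. It was 75.6% of capillary-like cells (exact 95% binomial interval 74.4% to 76.7%), 42.2% of venous-like cells (40.3% to 44.1%) and 32.8% of arterial-like cells (31.1% to 34.4%), where the median cell held 4022.5 to 4260 UMIs. It was 2.15% of lymphatic-like cells (1.62% to 2.79%, median 2189 UMIs), against 2.19% of B cell-like cells (0.948% to 4.26%, median 2235.5 UMIs) and 3.39% of T cell-like cells (1.87% to 5.62%, median 3185 UMIs). These shares pool the libraries, and a library of run A gave 35 to 145 capillary-like and 340 to 645 lymphatic-like cells, against 836 to 2103 and 131 to 298 in run B. In single libraries the share ran from 49.7% to 68.6% (run A) and 72.9% to 79.6% (run B) in capillary-like cells, from 25.3% to 35.4% and 33.4% to 67.7% in venous-like cells, from 6.72% to 10.4% and 20.1% to 48.7% in arterial-like cells and from 0.875% to 2.49% and 2.01% to 5.32% in lymphatic-like cells, with the classes in this order in 8 of 8 libraries. Intervals cover counting error only. After each cell was thinned to 1000 UMIs, which leaves out 173 capillary-like, 185 venous-like, 188 arterial-like and 324 lymphatic-like cells that are shallower, the shares were 35.8%, 18.5%, 11.9% and 0.715%.

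**Figure D2:**
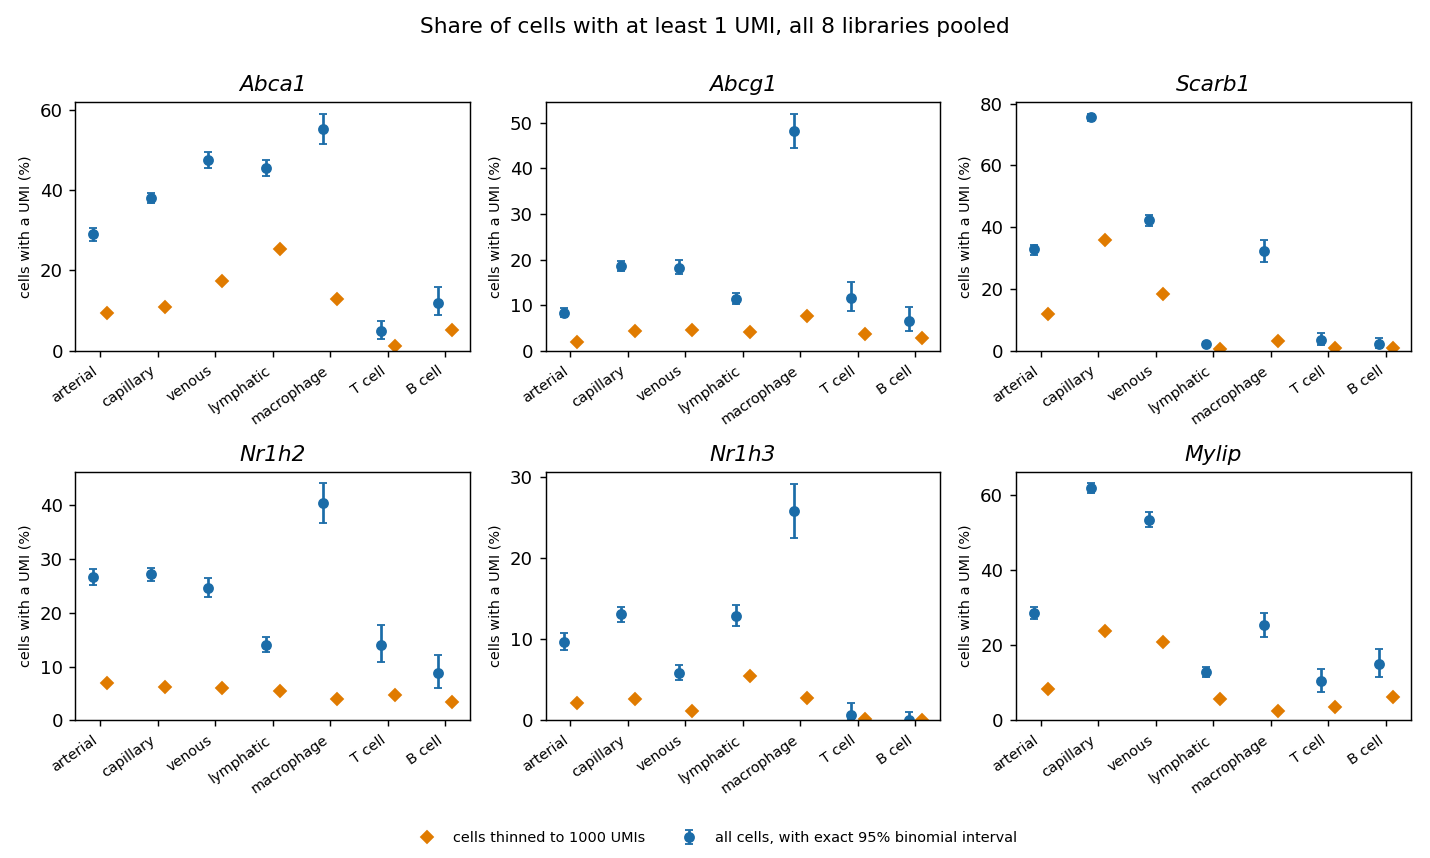
Share of cells with at least 1 UMI of each member (percent, y axis) in the 4 endothelial classes and in macrophage-like, T cell-like and B cell-like cells, over all 8 libraries; blue points show all cells with the exact 95% binomial interval, orange diamonds the share after thinning to 1000 UMIs. Scarb1 falls from 75.6% in capillary-like to 2.15% in lymphatic-like cells, and macrophage-like cells, with a median of 12925 UMIs, lose most of their apparent share on thinning.

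Scarb1 also divided the classes from within. The arterial-like class is made of cluster 6 (led by Col8a1, Alox12 and Hey1), cluster 5 (Gkn3, Gja5, Alpl) and cluster 19 (Klk10, Mgp, Ptgis). Cluster 6 held 190 ± 108 CPM of Scarb1 and was above cluster 5 (54.0 ± 32.1 CPM) in 8 of 8 libraries. Cluster 19 held 14.8 ± 6.95 CPM in the 5 libraries with at least 20 of its cells and was below cluster 5 in all 5. In the venous-like class, cluster 7 (Ackr1, Selp, Cysltr1) held 370 ± 224 CPM and cluster 8 (Plac8, Sele, Vwf) 62.9 ± 17.0 CPM in the 6 libraries that had both, with cluster 7 higher in 6 of 6. The small venous-like cluster 26 (Glycam1, Madcam1, 129 cells) held 137 ± 22.8 CPM in the 2 libraries with at least 20 of its cells. The capillary-like clusters 1 and 2 were closer, at 624 ± 238 and 483 ± 72.6 CPM in 5 libraries. These are descriptions with no test, since the clusters come from the same cells.

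**Figure D3:**
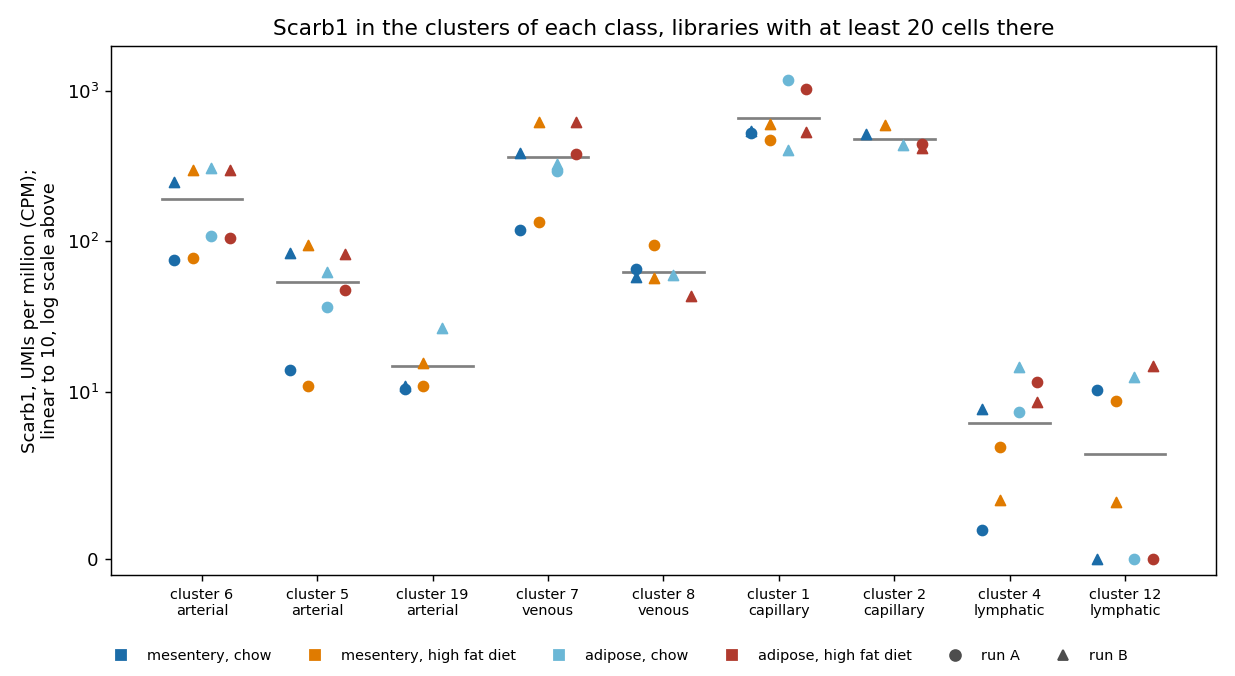
Scarb1 in CPM (y axis, linear up to 10 and logarithmic above) in the clusters that make up each class; points are libraries with at least 20 cells in the cluster and the grey line is their mean. Inside the arterial-like class the clusters run from a mean of 190 CPM (cluster 6) to 14.8 CPM (cluster 19), and inside the venous-like class clusters 7 and 8 do not overlap.

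Nr1h3, which encodes LXRα (chromosome 2, 91184061 to 91202834, minus strand; ENSMUSG00000002108), was sparse in every class. It averaged 50.2 ± 18.7 CPM in lymphatic-like cells, 21.7 ± 13.9 CPM in capillary-like, 19.0 ± 8.02 CPM in arterial-like and 13.4 ± 5.19 CPM in venous-like cells. Lymphatic-like cells were highest in 7 of 8 libraries, and the differences from all 3 blood vessel classes were called, the largest against venous-like cells (venous minus lymphatic -1.77 ± 0.271, edgeR adjusted p = 3.7e-06). Capillary-like cells were above venous-like cells (0.87 ± 0.276, edgeR adjusted p = 0.0164), although both mesentery libraries of run A had no UMI of Nr1h3 in their 35 capillary-like cells each. B cell-like cells had no Nr1h3 UMI in 366 cells, which allows a share of up to 0.82% of cells with a UMI. T cell-like cells had 3 UMIs of it.

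Nr1h2, which encodes LXRβ (chromosome 7, 44549616 to 44553951, minus strand; ENSMUSG00000060601), was the member with the smallest class differences. It averaged 81.7 ± 15.5 CPM in arterial-like, 89.4 ± 42.2 CPM in capillary-like, 61.8 ± 11.3 CPM in venous-like and 53.1 ± 7.16 CPM in lymphatic-like cells. Lymphatic-like cells were lowest in 6 of 8 libraries and lay below arterial-like cells by 0.66 ± 0.119 log2 units (arterial minus lymphatic 0.66, edgeR adjusted p = 2.91e-05). The arterial-like and capillary-like levels did not differ past the threshold (0.08 ± 0.118, edgeR adjusted p = 0.742), and each class was highest in 4 of 8 libraries. The 2 receptor genes thus lay in opposite order: Nr1h3 was higher and Nr1h2 lower in lymphatic-like than in arterial-like cells.

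Mylip (chromosome 13, 45389742 to 45412022, plus strand; ENSMUSG00000038175), the LXR target that removes lipoprotein receptors, averaged 249 ± 84.8 CPM in capillary-like and 221 ± 53.2 CPM in venous-like cells, which did not differ past the threshold (0.04 ± 0.250, edgeR adjusted p = 0.938). It averaged 81.5 ± 53.0 CPM in arterial-like and 56.2 ± 25.8 CPM in lymphatic-like cells. Lymphatic-like cells were below capillary-like cells in 8 of 8 libraries (capillary minus lymphatic 2.16 ± 0.269, edgeR adjusted p = 1.05e-07), and so were arterial-like cells (-1.54 ± 0.255, edgeR adjusted p = 2.87e-05). Arterial-like against lymphatic-like cells was not called (0.62 ± 0.270, edgeR adjusted p = 0.064), and the order was arterial-like over lymphatic-like in 5 of 8 libraries. Scarb1 and Mylip followed each other over the 32 class sums (r = 0.83).

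The genes with the pattern most like each member, among 8472 genes of at least 10 CPM on average, were found by Pearson's r of log2(CPM + 1) over the same 32 class sums, after each library's mean was subtracted. For Scarb1 they were Slfn5 (r = 0.947), Csf2rb (0.945), Tcim (0.943) and Pcdh17 (0.943), and for Mylip Ndufa8 (0.922), the apelin receptor gene Aplnr (0.895), Vwa1 (0.884) and Col15a1 (0.879). For Abca1 they were Ipo11 (0.899), the selenoprotein P gene Selenop (0.884), Mid2 (0.876) and Sntb2 (0.866). Abcg1 was most like Mapre2 (0.898), Gpr182 (0.894), Tpst2 (0.862) and Abca1 (0.858). Nr1h3 was most like Sh3d19 (0.937), Mrpl23 (0.907), Rmnd5b (0.896) and Etfa (0.864), and Nr1h2 was most like Sft2d1 (0.831), with Map7d1 (0.816) the fourth.

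Around the members, 50 genes of the pathway were followed in 5 lists. Of the 12 other LXR targets, 9 could be tested between classes. Against lymphatic-like cells, 5 were higher and 1 lower in arterial-like cells (median log2 difference 0.60, 43.4% of all genes called), 3 higher and 2 lower in capillary-like cells (0.21, 43.3%) and 3 higher and 2 lower in venous-like cells (0.19, 39.2%). Among the blood vessel classes, 3 were higher and 1 lower in arterial-like than in capillary-like cells (0.26, 23.6%), 3 higher and 2 lower in arterial-like than in venous-like cells (0.24, 27.2%), and 1 higher and 1 lower in capillary-like than in venous-like cells (-0.08, 29.6%); the median over all genes lay between -0.01 and 0.01 in each pair. Pltp, the phospholipid transfer protein that remodels HDL, was 4.02 log2 units higher in arterial-like than in lymphatic-like cells, and Scd1, a fatty acid desaturase, 4.36 units higher. Both differences have the opposite sign to that of Abca1. Of the 9 targets tested, 5 were called with this sign in that pair and 1 with the sign of Abca1. Scd1 is also abundant in adipocytes, whose 8 markers summed to 5.475 to 1567 CPM in arterial-like and 1.189 to 158.9 CPM in lymphatic-like sums. Their part in the Scd1 difference was not tested. Among Mylip's receptor targets, Vldlr was lower in arterial-like (-3.29), capillary-like (-4.59) and venous-like cells (-3.06) than in lymphatic-like cells, where Mylip itself was low. In sterol trafficking, Ch25h, which makes the oxysterol 25-hydroxycholesterol, was lower in capillary-like (-3.45) and arterial-like cells (-2.73) than in venous-like cells. Soat1, which esterifies cholesterol for storage, was lower in arterial-like (-1.60), capillary-like (-1.43) and venous-like cells (-0.62) than in lymphatic-like cells. All of the single-gene log2 differences in this paragraph were called by edgeR. Pltp, Scd1, Vldlr, Ch25h and Soat1 are examples chosen after the values were seen, in pairs where 27.2% to 43.4% of all genes were called. How many other genes of the lists that hold Vldlr, Ch25h and Soat1 were called in each direction is not given here.

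Diet was compared with chow in each tissue, as a question of whether the high fat diet changed the efflux and uptake genes. In the fit of the 4 groups without the run as a block, no member passed the test in any class, and neither did any other gene (0% of 8854 to 13105 genes called by edgeR in each of 19 comparisons of diet, tissue or their interaction). At an unadjusted p under 0.05, 34 to 523 genes passed in these comparisons apart from the interaction in capillary-like cells, where 3 did. DESeq2 and limma-voom without the block called no member either, and 0 to 88 and 0 genes in all. Runs A and B are repeats of the whole experiment and differed strongly, so the same test was also fitted with the run as a block, and the values that follow are from that fit unless another is named. With it, 0 to 319 genes were called per comparison, and 4 member differences passed: Scarb1 for diet and for tissue in arterial-like cells, and Mylip and Nr1h3 for diet in mesenteric lymphatic-like cells.

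**Figure D4:**
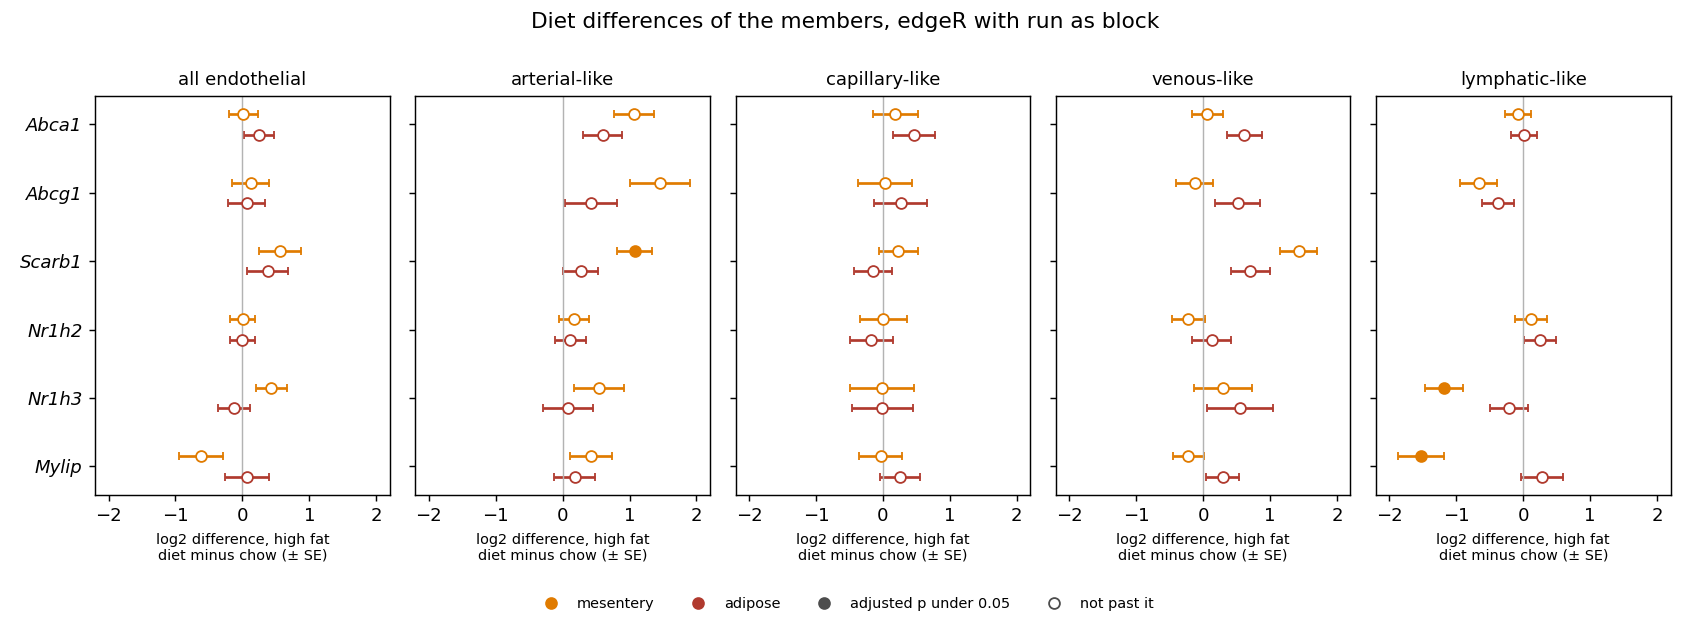
Log2 difference of each member between high fat diet and chow (x axis, ± SE) in all endothelial cells and in the 4 classes, from edgeR with the run as a block; orange is mesentery, red is adipose, and filled points have an adjusted p under 0.05. The filled points are Scarb1 in arterial-like cells (1.08) and Nr1h3 (-1.18) and Mylip (-1.53) in lymphatic-like cells, all in the mesentery.

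In mesenteric lymphatic-like cells Mylip fell on the high fat diet, from 43.0 to 30.0 CPM in run A and from 84.4 to 15 CPM in run B. The log2 difference was -1.53 ± 0.350 (edgeR with block, adjusted p = 0.0202). Behind these levels stand 34 and 102 UMIs on chow and 41 and 13 UMIs on the high fat diet. Nr1h3 fell in the same cells, from 64.5 to 39.5 CPM in run A and from 70.3 to 23.1 CPM in run B (-1.18 ± 0.285, edgeR with block, adjusted p = 0.0299). Its UMIs numbered 51 and 85 on chow and 54 and 20 on the high fat diet. These were 2 of the 5 members that could be tested, where 2.47% of all genes were called. Abcg1 was lower in both runs (27.8 to 21.2 and 51.3 to 27.7 CPM), which did not pass the test (-0.67 ± 0.281, edgeR with block, adjusted p = 0.29), while Abca1 was at 214 and 323 CPM on chow and 230 and 280 CPM on the high fat diet. In cluster 4 alone, a fit chosen after the data had been seen, both were called by edgeR with block. Mylip was at -1.48 (adjusted p = 0.0138) and Nr1h3 at -1.29 (adjusted p = 0.00864). The share of all genes called in that fit is not given here. Without the mesenteric chow library of run B or the mesenteric high fat diet library of run B, neither Mylip nor Nr1h3 was called, and Nr1h3 also was not called without the mesenteric high fat diet library of run A; over the libraries left out, Mylip ranged from -2.24 to -0.64 and Nr1h3 from -1.72 to -0.66. With the same block, limma-voom called both (adjusted p = 0.0385 and 0.0357) and DESeq2 neither (adjusted p = 0.0874 and 0.243).

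In the lymphatic-like cells of adipose tissue none of 5 members was called for diet (0.0678% of all genes called). Mylip was at 71.7 and 53.4 CPM on chow and at 88.0 and 64.2 CPM on the high fat diet, a difference of 0.28 ± 0.312, and Nr1h3 was at 68.4 and 40.7 CPM against 64.2 and 31.0 CPM (-0.21 ± 0.290). The test of the difference between tissues, the interaction, did not pass for Mylip (-1.81 ± 0.471, edgeR with block, adjusted p = 0.206) or Nr1h3 (-0.97 ± 0.408, adjusted p = 0.736), with 0.124% of all genes called. The 12 capillary markers, a class rich in Mylip, summed to 1242 to 1607 CPM in the mesenteric lymphatic-like sums on chow and to 1393 to 1757 CPM on the high fat diet. The 8 adipocyte markers summed to 18.97 to 158.9 CPM on chow and to 2.192 to 8.088 CPM on the high fat diet. Other lists without overlap between the diets in these sums were higher on the high fat diet for proliferating cells (41.73 to 86.04 against 99.38 to 150.2 CPM), macrophages (95.97 to 130.2 against 139.6 to 158.3 CPM) and red cells (0 against 6.932 to 12.42 CPM), and lower for mural cells (61.22 to 99.9 against 43.9 to 46.04 CPM) and B cells (13.91 to 37.23 against 5.777 to 13.15 CPM). The lymphatic markers themselves were at 31220 to 33550 CPM on chow and 34450 to 41790 CPM on the high fat diet. The part of these lists in the result was not tested. Of the other LXR targets, 8 could be tested in these cells of the mesentery, and Apoe alone was called (-2.77 ± 0.509, edgeR with block, adjusted p = 0.00356); the list's median was -0.49 against 0.00 over all genes. No gene of the LXR partners, HDL, sterol trafficking or SREBP2 lists was called there.

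**Figure D5:**
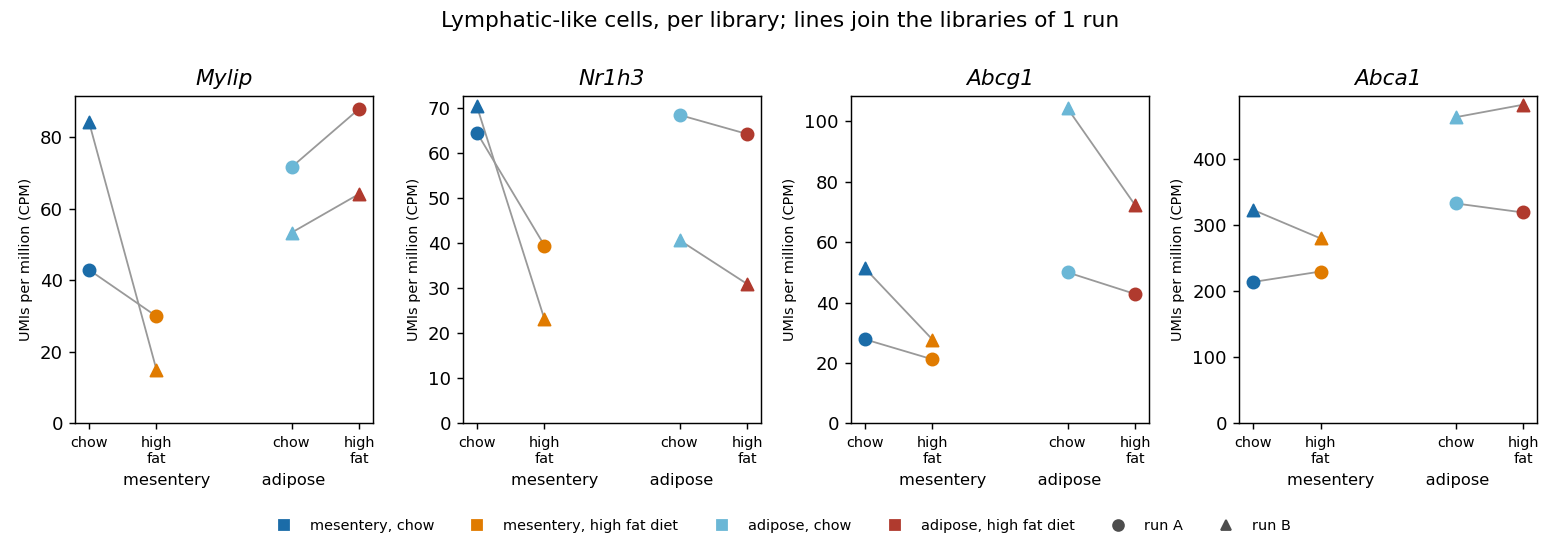
Mylip, Nr1h3, Abcg1 and Abca1 in lymphatic-like cells, in CPM (y axis, from 0), for chow and high fat diet in the mesentery and in adipose tissue; each point is a library and each line joins the 2 libraries of 1 run. Mylip falls in both mesenteric runs (84.4 to 15 CPM in run B) and is higher on the high fat diet in both adipose runs.

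In arterial-like cells of the mesentery Scarb1 rose on the high fat diet, from 16.9 to 27.4 CPM in run A and from 94.2 to 220 CPM in run B. Both values of run A lay under those of run B. The rise within runs was 1.08 ± 0.259 log2 units (edgeR with block, adjusted p = 0.023), and 1 of 6 members was called where 3.07% of all genes were. Abca1 (20.8 to 38.3 and 69.7 to 162 CPM) and Abcg1 (2.6 to 5.5 and 9.1 to 27.0 CPM) were higher in both runs, and missed the threshold (1.07 ± 0.30, adjusted p = 0.0589, and 1.45 ± 0.450, adjusted p = 0.103; edgeR with block). Run A gave 2 Abcg1 UMIs on each diet.

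The cluster makeup of the mesenteric arterial-like class moved with diet. Cluster 6, where Scarb1 is highest, made up 15.8% and 18.6% of the class on chow (runs A and B) and 31.9% and 57.3% on the high fat diet. Cluster 19, where it is lowest, made up 52.5% and 33.6% on chow against 20.2% and 4.13%. In cluster 5 alone the Scarb1 difference was 0.11 ± 0.359 (edgeR with block, adjusted p = 1), and in cluster 6 alone Scarb1 was at 75.18 and 247.5 CPM on chow and at 76.98 and 298.6 CPM on the high fat diet. Abca1 was 0.68 ± 0.332 in cluster 5 (adjusted p = 0.84). The 12 capillary markers in the arterial-like sums went from 684.2 and 4345 CPM on chow to 1536 and 9553 CPM on the high fat diet, and the 12 arterial markers were at 16350 to 26800 CPM on chow and 7233 to 15050 CPM on the high fat diet. Mural (108.2 to 172 against 255.9 to 298.4 CPM), proliferating (31.28 to 58.32 against 65.7 to 134.1 CPM) and macrophage markers (5.213 to 8.798 against 13.69 to 45.1 CPM) were also higher on the high fat diet without overlap. The part of the markers and of the makeup in the result was not tested beyond these values. The Scarb1 call was lost without any 1 of the 4 libraries of run B (log2 difference from 0.37 to 1.25 over all libraries left out), and DESeq2 and limma-voom with the block did not call it (adjusted p = 0.206 and 0.135). Without the mesenteric chow library of run A, which leaves 1 library in that group, the differences with the block were 1.22 for Abca1, 1.54 for Abcg1 and 0.89 for Mylip.

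In arterial-like cells of adipose tissue no member was called for diet (0.289% of all genes called). Scarb1 was at 47.5 and 209.5 CPM on chow and 65.9 and 234.2 CPM on the high fat diet (0.27 ± 0.260), and Abca1 was at 32.7 and 109.7 CPM against 14.6 and 190 CPM. On chow, Scarb1 was lower in arterial-like cells of the mesentery than of adipose tissue (16.9 and 94.2 against 47.5 and 209.5 CPM; -1.16 ± 0.262, edgeR with block, adjusted p = 0.0136), the 1 member called where 2.93% of all genes were. In cluster 5 alone this difference was 0.22 ± 0.364 with the opposite sign, and cluster 19 made up 9.63% and 3.12% of the class in adipose tissue on chow against 52.5% and 33.6% in the mesentery. Without the chow library of run B in either tissue Scarb1 was not called for tissue, and neither was it by DESeq2 (adjusted p = 0.0788) or limma-voom (adjusted p = 0.12) with the block. On the high fat diet no member was called between tissues (0.115% of all genes), nor for the interaction of tissue and diet (0.00962%), where Scarb1 was at 0.80 ± 0.366 (edgeR with block, adjusted p = 1).

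In venous-like cells Scarb1 was higher on the high fat diet in each of the 4 pairs of libraries, without a call. In the mesentery it went from 78.5 to 162.5 CPM in run A and from 149.7 to 468.6 CPM in run B (1.43 ± 0.280, edgeR with block, adjusted p = 0.0734; 0 of 6 members called, with 0.12% of all genes). DESeq2 with the block called it (1.45 ± 0.346, adjusted p = 0.00991). In adipose tissue it went from 279.8 to 338.8 and from 304.5 to 586.4 CPM (0.70 ± 0.294, edgeR with block, adjusted p = 1; 0 of 6 members, 0.0996% of all genes). Cluster 8, the venous-like cluster low in Scarb1, held 79.1% and 69.4% of the mesenteric class on chow and 51.2% and 23.2% on the high fat diet. In cluster 7 alone the mesenteric difference was 0.66 ± 0.362 (edgeR with block, adjusted p = 1) and the adipose one 0.75 ± 0.364. No gene was called for the interaction in venous-like cells.

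In capillary-like cells, which hold most of the Scarb1 message, no member was called for diet in the mesentery (0.813% of all genes called), in adipose tissue (1.27%) or for the interaction (0.029%). Scarb1 was at 561 and 529 CPM on chow and 681 and 601 CPM on the high fat diet in the mesentery (0.23 ± 0.286), and at 1016 and 434 CPM against 573 and 527 CPM in adipose tissue (-0.15 ± 0.282; edgeR with block, adjusted p = 1 for both). Abca1 was higher on the high fat diet in all 4 pairs of libraries, by 0.19 ± 0.331 in the mesentery and 0.47 ± 0.312 in adipose tissue. Run A had only 35 to 145 capillary-like cells per library, and most capillary-like cells were in cluster 1 on the high fat diet in run B (90.1% and 93.6%) but in cluster 2 in adipose tissue on chow (84.6%). The LXR target Scd1 fell in these cells in both tissues (-3.53 ± 0.405 and -4.13 ± 0.413), as did Apoc1 (-2.66 ± 0.642 and -3.64 ± 0.670; edgeR with block, adjusted p up to 0.0065). They were the 2 of 10 other LXR targets called in each tissue. Scd1 is also abundant in adipocytes. The 8 adipocyte markers summed to 134.2 to 3621 CPM in the mesenteric and 261.3 to 4125 CPM in the adipose sums on chow. On the high fat diet they summed to 0 to 257.5 and 82.34 to 104.2 CPM. Their part in the fall of Scd1 and of Apoc1 was not tested.

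Scd1 also fell in arterial-like cells in the mesentery (-1.55 ± 0.355, edgeR with block, adjusted p = 0.0164) and in adipose tissue (-2.11 ± 0.378, adjusted p = 0.01), and in venous-like cells of adipose tissue (-3.41 ± 0.556, adjusted p = 0.0418). The adipocyte markers in these sums were at 29.98 to 568.3 CPM on chow and 5.475 to 110.1 CPM on the high fat diet in mesenteric arterial-like cells, at 35.65 to 1567 and 7.321 to 44.81 CPM in adipose arterial-like cells, and at 11.19 to 1521 and 8.364 to 22.7 CPM in adipose venous-like cells, and their part was not tested here either. In mesenteric arterial-like cells 3 more genes of the pathway were called: Pltp (-0.99 ± 0.244) and the LXR corepressor gene Nrip1 (-0.95 ± 0.222) fell, and Gramd1b, which carries plasma membrane cholesterol to the endoplasmic reticulum, rose (2.21 ± 0.497). Apoe, whose product is a lipoprotein ligand, was lower in arterial-like cells of the mesentery than of adipose tissue on chow (-1.19 ± 0.202, edgeR with block, adjusted p = 0.00116). Cluster 19 made up 52.5% and 33.6% of the mesenteric arterial-like class on chow and 20.2% and 4.13% on the high fat diet. In adipose tissue on chow it made up 9.63% and 3.12%. The part of this makeup in the arterial-like differences was not tested, and the pathway genes were not fitted in single clusters or with a library left out. Over the 19 comparisons, 10 of 179 tests of the other LXR targets were called, where 0% to 3.07% of all genes were called per comparison. These 10 calls, all lower, came from 4 of the 12 genes: Scd1 was called 5 times, Apoc1 and Apoe 2 times each and Pltp 1 time. No gene of the HDL or of the Mylip target and SREBP2 lists was called in either direction.

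Over all endothelial cells of a library, no member was called for diet in the mesentery (0.0458% of all genes called) or in adipose tissue (0.00763%), for tissue on chow (0.725%), or for tissue on the high fat diet and the interaction, where no gene was. The differences closest to a call were between tissues on chow, where Nr1h3 was lower in the mesentery (-0.83 ± 0.233, edgeR with block, adjusted p = 0.171) and so was Scarb1 (-0.75 ± 0.310, adjusted p = 0.38). These sums mix the classes, whose shares differed between libraries: lymphatic-like cells, with the highest Abca1 and almost no Scarb1, numbered 645 in adipose chow run A and 168 in adipose chow run B. A change in how many cells belong to a class and a change of RNA per cell cannot be told apart in such sums.

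The level of several members differed between the runs. In arterial-like cells, Abca1, Abcg1, Scarb1 and Mylip were each higher in run B than in run A in 4 of 4 pairs of libraries, with means of 133 against 26.6 CPM for Abca1, 24.7 against 3.51 CPM for Abcg1, 190 against 39.4 CPM for Scarb1 and 125 against 38.3 CPM for Mylip. Nr1h2 went the other way in all 4 pairs (68.5 against 94.9 CPM). In capillary-like cells Scarb1 was lower in run B in 4 of 4 pairs (523 against 708 CPM). The runs also differed in depth, in the share of barcodes over the mitochondrial limit and in the Cell Ranger version (3.0.2 and 5.0.0), and the part of each was not tested. The makeup of the arterial-like class moved with them: cluster 6 made up 15.8% to 31.9% of it in run A and 18.6% to 57.7% in run B, more in run B in 4 of 4 pairs, and the capillary markers summed to 684.2 to 2493 CPM in run A and 4345 to 11240 CPM in run B.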

How the data were processed

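The deposited files are 10x Genomics matrices of raw counts (UMIs per gene and barcode) for each of 8 libraries, made by the authors with Cell Ranger 3.0.2 (run A) and 5.0.0 (run B), per the file headers; the build is mm10 and Seurat 4.3.0 was used, per the submitters' processing notes. Cell Ranger's filters and annotation: not given in the sources used here. Barcodes with at least 500 UMIs and 300 genes and at most 10% mitochondrial UMIs were kept. The automatic doublet threshold marked 42 cells (0.18%), so the highest Scrublet scores were removed instead, at 0.8% per 1000 barcodes (858 cells, 3.58%). For clustering, scanpy 1.11.5 picked 2000 variable genes, leaving out the members, their pathway lists and mitochondrial, ribosomal or haemoglobin genes. The 30 components were corrected between runs A and B, not between libraries, by a scheme written after Harmony. Leiden at resolution 1.0 gave the clusters, and classes were named from marker lists. Clusters with raised mural or adipocyte markers were left out of all endothelial cells.

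Counts were summed per class and library and tested with edgeR 4.0.16 (TMM, filterByExpr, quasi-likelihood, Benjamini-Hochberg over all genes), by group alone and with the run as a block, and between classes with the library as a block. The runs pair the libraries, since in the labels each run is a repeat of the whole experiment; same-run deviations correlated at 0.27 to 0.76 in every class. DESeq2 1.42.0, limma 3.58.1 and the other alternatives are in the closing section. Sums of under 20 cells were not used. Scarb1 failed the filter on low counts in lymphatic-like cells and the other 5 members passed; all 6 passed elsewhere. EdgeR's fit for diet in the mesentery was first run on simulated sums of all endothelial cells, with the same spread for every gene. That simulation did not cover the sparser class sums or changes in cluster makeup. Each group has 2 libraries, 1 from each run, so p-values without the block take in the difference between runs. With the block they rest on the spread left after that difference, and between classes on the spread of class differences over libraries. None of them isolates the spread between pools of mice. Depth per library limits rare genes most in run A. The 6 members are always named; of the pathway genes, those called with the block are named, up to 4 each way by smallest p; between classes, the examples were chosen for their role after the values were seen. The members and lists were chosen with earlier results of these data known. Loci are from GENCODE M21 (GRCm38) and promoters from RefSeq (GRCm38.p6). Values of 1 gene of the pathway lists are not reported here.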

Additional observations from a re-analysis of the deposited data

Results flagged for a closer look

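All 6 members were screened in the 4 classes for diet differences of opposite sign in the 2 tissues, in both runs. Mylip in 2 classes and Abcg1 in 1 had the same sign in both mesentery runs and the opposite sign in both adipose runs. None passed the test of that difference. The share of such patterns over all genes was not computed, so these signs alone cannot be told from chance. In lymphatic-like cells Mylip was lower on the high fat diet in both mesentery runs and higher in both adipose runs, with an interaction of -1.81 ± 0.471 (edgeR with the run as a block, adjusted p = 0.206). In venous-like cells Abcg1 (-0.64 ± 0.436, edgeR adjusted p = 1) and Mylip (-0.51 ± 0.341, edgeR adjusted p = 1) did the same. The interaction in these classes was added after the data had been seen.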

How the results depend on the processing

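Without the run as a block, no member was called in any group comparison under any alternative: DESeq2, limma-voom, RLE scaling, no filter on low counts, doublets kept, cells of at least 1000 UMIs, clustering at resolution 2.0, or 1 library left out. Over all genes, 0 were called by edgeR without the block and 0 to 319 with it, 0 to 88 and 0 to 458 by DESeq2, 0 and 0 to 201 by limma-voom, and 0 to 88 by edgeR without a filter or a block. RLE moved the median of all genes by at most 0.034 log2 units against TMM. With the replicate block the members called for diet in the mesentery numbered 1 in arterial-like cells (2 at resolution 2.0; 1 with doublets kept, at least 1000 UMIs or RLE; 0 with DESeq2 or limma-voom), 0 in venous-like cells (1 with DESeq2, and 1 at resolution 2.0) and 2 in lymphatic-like cells (1 with doublets kept; 2 with at least 1000 UMIs, resolution 2.0, RLE, limma-voom or 1 cluster alone; 0 with DESeq2). For tissue on chow in arterial-like cells, 1 was called with the block, and 1 with doublets kept, at least 1000 UMIs, resolution 2.0 or RLE. The block changed no other call of a member. The block together with another choice, single clusters, mixed clusters and the interaction in 3 classes were chosen after seeing the data. Leaving out 1 library, with or without the block, gave 0 to 1 member called for tissue on chow in all endothelial cells, 0 to 4 for diet in the mesentery and 0 to 3 for tissue on chow in arterial-like cells, 0 to 1 for diet in the mesentery in venous-like cells, and 0 to 2 for diet in the mesentery and 0 to 1 for the interaction in lymphatic-like cells; a lone library in a group is then assumed to vary like the others. Over these fits the sign turned for Scarb1 between tissues on chow in all endothelial cells (-1.68 to 0.11), for Abca1 (-0.22 to 2.13), Abcg1 (-0.22 to 2.66) and Scarb1 (-0.99 to 2.72) for diet in mesenteric arterial-like cells, and for Abcg1 (-2.64 to 0.09) and Scarb1 (-2.77 to 0.17) between tissues on chow in arterial-like cells, where cluster 5 alone also turned Scarb1 (0.10, and 0.22 with the block). Between classes, the members called numbered 3 for capillary-like against venous-like cells (0 with limma-voom or resolution 2.0, 1 in run A or run B alone, 1 to 3 with a library left out) and 5 for venous-like against lymphatic-like cells (3 with limma-voom); the other pairs stayed within 1.5 times. Differences that were not called turned sign for Nr1h2 between arterial-like and capillary-like cells (-0.01 in run A), Nr1h3 between arterial-like and venous-like cells (-0.10 in 1 cluster of each class), Mylip between arterial-like and lymphatic-like cells (-0.38 in run A, but 1.21 and called in run B; -0.16 in 1 cluster of each) and between capillary-like and venous-like cells (-0.07 in run A, -0.29 with doublets kept, -0.11 in 1 cluster of each, -0.07 to 0.17 with a library left out), and Abcg1 between venous-like and lymphatic-like cells (-0.29 to 0.10). The cause of the lost or turned calls was not tested. Capillary-like cells at resolution 2.0 could not be fitted with the block. The class itself was not stable: it kept 1226 cells at that resolution, where the Car4 and Fabp5 cluster (1968 cells) had no class. With doublets kept, the Timp4 and Cxcl9 cluster (2976 cells) showed raised adipocyte markers and left the class. In the share of cells with a UMI, pooled over libraries, thinning to 2000 in place of 1000 UMIs kept 33 of the 36 orders of a member between a pair of classes. Depth limits run A most, where a library had 35 to 145 capillary-like cells.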

Other observations

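The sorted cells outside the 4 classes held the members at their own levels. Among the endothelial clusters without a class, Scarb1 was at 641 ± 107 CPM in cluster 23 (led by Col13a1, n = 4 libraries), near the capillary-like mean. Its means in clusters 3, 13, 15 and 25 were 41.2 to 273 CPM. Abca1 was at 245 ± 32.7 CPM in cluster 13 (led by Marco, n = 3 libraries), with means of 107 to 162 CPM in clusters 3, 15, 23 and 25. Adipocyte-like cells, present with at least 20 cells in 2 libraries of run B on chow, held Nr1h3 at 46.9 and 57.2 CPM, Abca1 at 80.3 and 157 CPM and Scarb1 at 77.3 and 122 CPM. Fibroblast-like cells held Abca1 at 119 ± 32.1 CPM and Scarb1 at 18.3 ± 9.07 CPM (SD, n = 8 libraries). Macrophage-like cells held Scarb1 at 34.1 ± 13.1 CPM, Nr1h3 at 24.4 ± 21.2 CPM and Mylip at 28.9 ± 7.14 CPM (n = 4 libraries). Proliferating-like cells held Scarb1 at 134 ± 24.3 CPM and Abca1 at 57.4 ± 10.9 CPM (n = 4 libraries). Inside the lymphatic-like class Nr1h3 averaged 58.4 ± 24.4 CPM in cluster 4 and 25.4 ± 12.1 CPM in cluster 12, with cluster 4 higher in 6 of 8 libraries, and Mylip had the opposite order in 7 of 8 (47.7 ± 23.8 against 72.1 ± 35.2 CPM). In the capillary-like class Mylip was lower in cluster 1 than in cluster 2 in 5 of 5 libraries (255 ± 44.5 against 340 ± 36.6 CPM).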
